A study of Nothobranchius furzeri with 6 samples.

Results

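The microRNA rows mir-10 (nfu-mir-10 in the table) and mir-196 (nfu-mir-196) were examined in brain small RNA of Nothobranchius furzeri. This turquoise killifish is an annual species with a very short life. They are 2 of the 324 features in the authors' deposited table and were taken by name, ignoring the species prefix, as the families linked to Hox genes. The 6 libraries, numbered 1 to 6 here for naming only, came from male fish of the strain MZM-04/10p aged 39 weeks. They form 1 group, with no other age, sex, strain, genotype or treatment to compare. The table holds raw read counts for 235 named families and 89 predicted features. Library totals lay between 11924483 and 16597229 counts, and levels are given as CPM (counts scaled to a common library size) after correction between libraries by edgeR's TMM factors.

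The Hox genes lie in clusters whose gene order follows the order of their expression along the head-to-tail axis. In vertebrates miR-10 genes lie beside Hox4 genes and miR-196 genes between Hox9 and Hox10 genes. Each is known to be expressed in the part of the axis that its place in the cluster predicts, so miR-10 reaches the spinal cord and the trunk, and miR-196 lies further to the tail. In zebrafish miR-10 represses hoxb1a and hoxb3a, and in the mouse miR-196 directs cleavage of the Hoxb8 transcript. Both families thus act on genes of the clusters that hold them.

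Reads of miR-99 and miR-100 may also stand under the mir-10 name. These relatives of miR-10 lie, in vertebrates, in clusters with let-7 and miR-125 instead of in Hox clusters. No row carries the name mir-99 or mir-100, and how the reads of these relatives were counted is not known. The mir-10 row is not split into arms or family members, so a level of mir-10 below is that of the whole row. Other families known from Hox clusters in mammals or insects, mir-615, mir-993, mir-iab-4 and mir-iab-8, likewise have no row of their own name. In NCBI RefSeq's killifish gene table (assembly NfurGRZ-RIMD1) 38 Hox genes carry a cluster name, on 6 chromosomes. Its 4 Hox4 genes are hoxa4a, hoxb4a, hoxc4a and hoxd4a. Among these 38 genes, the 2 pairs of Hox9 and Hox10 genes adjacent by start position are hoxd9a with hoxd10a and hoxa9b with hoxa10b. Genes without such a name were left out of this order and may lie between them. These genes were listed by number alone, so a miR-10 or miR-196 gene need not lie beside each of them. The killifish miRNA genes themselves were not placed here, and no sequences were used.

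The first question was how much of each family the brain contained. The mir-10 row was among the most abundant of the brain, and the mir-196 row was present in every library at a trace level. The mir-10 row held 436585, 518449, 718234, 308258, 372065 and 558996 counts in libraries 1 to 6. Scaled, these were 35476, 35199, 41320, 26310, 30365 and 45662 CPM. Library 6 was the highest and library 4 the lowest, 1.74-fold apart, with libraries 1 and 2 close together near the mean. The mean was 35722 ± 7039 CPM (SD, n = 6), a coefficient of variation of 19.7%. This placed mir-10 7th among all 324 features.

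The mir-196 row held 45, 39, 40, 44, 34 and 23 counts in libraries 1 to 6. Scaled, these were 3.66, 2.65, 2.30, 3.76, 2.77 and 1.88 CPM. Libraries 4 and 1 were the highest and library 6 the lowest, 1.999-fold apart. The mean was 2.84 ± 0.743 CPM (SD, n = 6), with 225 counts over all libraries. Every library lay above the detection floor, taken as 3 counts, which corresponded to 0.173 to 0.256 CPM. The row stood 168th among all features and 149th among the 235 named families.

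**Figure D1:**
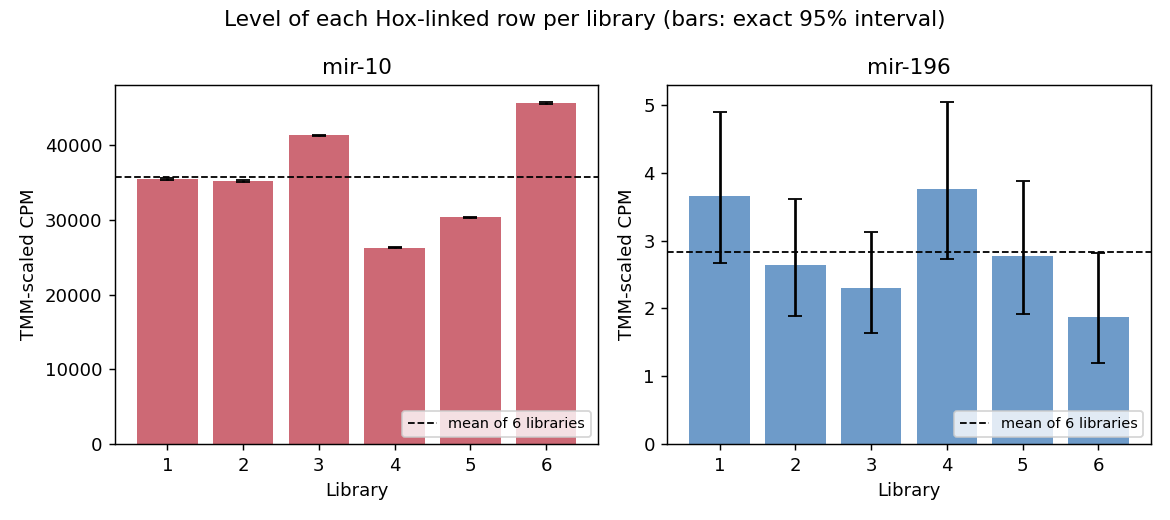
TMM-scaled CPM of mir-10 (left) and mir-196 (right) in each of the 6 libraries, with exact 95% binomial intervals as error bars and the mean as a dashed line. The mir-10 bars run from 26310 CPM (library 4) to 45662 CPM (library 6), with intervals too narrow to see, while the mir-196 bars run from 1.88 to 3.76 CPM with overlapping intervals.

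The depth behind these rows differed widely. The exact (Clopper-Pearson) 95% interval of mir-10 in library 4 ran from 26219 to 26402 CPM, and that of library 6 from 45545 to 45779 CPM. For mir-10 the intervals of all 15 pairs of libraries were apart. For mir-196 library 4 had 2.73 to 5.04 CPM and library 6 had 1.19 to 2.82 CPM, and none of the 15 pairs was apart. Overlap of intervals is not a test, and the mir-196 intervals of libraries 4 and 6 met only at their ends. These limits hold for counting alone, because several reads can stem from 1 molecule when no molecular identifiers are used. They also leave out any error of the TMM factors. At the counts of mir-10 even libraries 1 and 2, at 35476 and 35199 CPM, came out as apart. The result for the pairs thus reflects the depth of each row and does not compare the spread of the 2 rows.

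Both rows together took 3.65%, 3.57%, 4.33%, 2.59%, 2.96% and 4.38% of all counts in libraries 1 to 6. The mean share was 3.58% ± 0.718 (SD, n = 6). Within it, mir-196 made up 0.0143% in library 4, the highest, and 0.00411% in library 6, the lowest. The share was thus that of mir-10 in every library.

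**Figure D2:**
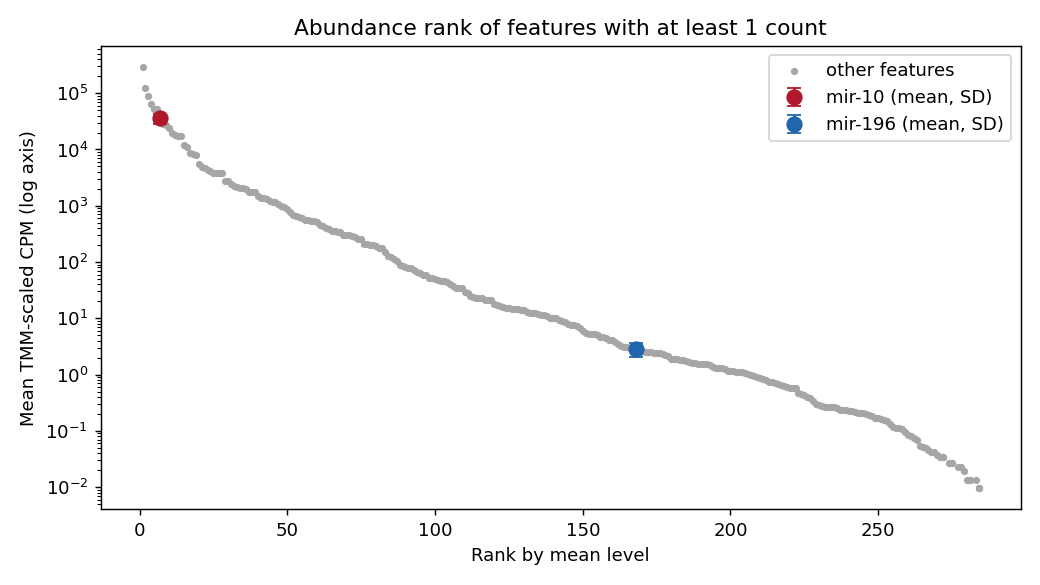
Mean TMM-scaled CPM over 6 libraries (log axis) against the rank of each feature with at least 1 count, with the SD as an error bar for the Hox-linked rows. The mir-10 row sits at rank 7 with 35722 CPM and mir-196 at rank 168 with 2.84 CPM.

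The rows ranked just above mir-10 were lin-4, the family name that also covers the neuronal miR-125, at 53241 ± 3936 CPM, and mir-9, known from neural progenitors and from neurons, at 52186 ± 3512 CPM (SD, n = 6 for each). Those just below were mir-22, broadly expressed, at 28269 ± 1710 CPM and mir-221 at 27219 ± 9073 CPM. Against mir-22, mir-10 was higher in 5 of 6 libraries, with a log2 ratio of 0.32 ± 0.31. Against mir-221 it was higher in 4 of 6 libraries, with a log2 ratio of 0.44 ± 0.68. The order of mir-10 and these rows thus turned in some libraries, while lin-4 and mir-9 were above mir-10 in all 6. These neighbours were picked by the ranking, so their order was not tested in that role. The families lin-4 and mir-9 also serve as partners in the ratio test below.

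Around mir-196, rows of like level changed places between libraries. The predicted feature pred_457 stood at 3.03 ± 0.738 CPM and the muscle family mir-499 at 3.01 ± 2.18 CPM just above it. The predicted feature pred_196, whose number has no relation to the family number, stood at 2.73 ± 0.591 CPM and mir-360 at 2.58 ± 1.48 CPM just below it. The mir-196 row was higher than these 4 in 3, 4, 4 and 3 of 6 libraries, in that order. Rows of families known only from plants or from viruses give another measure of this level. Of 14 such rows, picked after their values were seen, 8 stood above mir-196 and 6 below it, from 0.206 to 4784 CPM. How reads came to be counted under those names was not tested, and the same holds for the mir-196 row.

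The second question was how mir-10 stood within each library against mir-196 and against brain families of known role. Of the 5 partners, mir-10 exceeded mir-196 and the oligodendrocyte family mir-338 and lay below let-7, lin-4 and mir-9, each in 6 of 6 libraries. For every read of mir-196 there were 9702, 13294, 17956, 7006, 10943 and 24304 reads of mir-10 in libraries 1 to 6. The ratio was highest in library 6 and lowest in library 4, 3.47-fold apart. The exact 95% Poisson interval, which covers the mir-196 count alone, ran from 5219 to 9642 in library 4 and from 16197 to 38340 in library 6. These intervals did not overlap, but libraries 4 and 6 were picked as the extremes and overlap of intervals is not a test. The intervals of libraries 1 and 2, from 7251 to 13301 and from 9724 to 18694, did overlap.

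The log2 ratio of mir-10 to mir-196 was 13.62 ± 0.64 (mean ± SD, n = 6), computed with 0.5 added to each count. Against the conserved differentiation family let-7 it was -1.32 ± 0.32, from -1.76 in library 4 to -0.87 in library 6. Against lin-4 it was -0.60 ± 0.31, from -0.98 in library 4 to -0.17 in library 3. Against mir-9 it was -0.57 ± 0.29, from -1.003 in library 4 to -0.22 in library 3. Against mir-338 it was 1.01 ± 0.31, from 0.57 in library 4 to 1.48 in library 3. Library 4 thus had the lowest ratio for each of the 5 partners. By an exact sign-flip permutation test, two-sided, each had p = 0.03125, the smallest that 6 libraries allow. The Benjamini-Hochberg adjusted p over the 5 ratios was also 0.03125 in this exact test, which is possible only because all 5 reached that smallest value. All 5 ratios share mir-10, and lin-4 and mir-9 are also its neighbours in rank. These p-values thus say no more than that each order held in all 6 libraries. Adaptor ligation depends on sequence, so a ratio between families mixes abundance with that bias.

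The third question was whether mir-10 or mir-196 differed between libraries of like age, sex and strain by more than features of like abundance. Neither of the 2 was called by edgeR's goodness-of-fit test, against 3.74% of the 214 features whose mean count reached 10. That test fits 1 mean per feature with the dispersion trend shared by all features. It therefore sets a row against that trend and not directly against the rows of like abundance. The adjusted p was 0.9999 for mir-10 (unadjusted p = 0.814) and 0.9999 for mir-196 (unadjusted p = 0.833) by edgeR. Neither member was among the DESeq2 dispersion outliers, which were 1.40% of features. Both were called by a Poisson index of dispersion, that is, as varying more than counting alone gives. So were 82.7% of features, so this call does not set them apart. The chi-square per degree of freedom of that index was 17360 for mir-10 and 2.49 for mir-196 (adjusted p = 0.0358 over 214 features, from the chi-square distribution over 6 libraries and not an exact test). The missing call in edgeR's test does not show that the libraries were alike.

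In terms of size, the SD of log2(CPM + 1) was 0.29 for mir-10 and 0.28 for mir-196. The added 1 is large beside the 2.84 CPM of mir-196, so it shrinks that SD but hardly the SD of mir-10. These 2 values therefore do not show that the rows spread alike. The median over the 214 features was 0.27. Among the other 19 of the 20 most abundant features the median was 0.17, and 3 of them, mir-221, mir-153 and mir-128, had a higher SD than mir-10. Among the 42 other tested features within 2-fold of mir-196 in mean level the median was 0.28, with 21 of them higher than mir-196. The coefficient of variation of mir-196 was 26.2%, beside 16.5% from counting alone at its depth, and that of mir-10 was 19.7%. No 1 is added in that measure. Per the trend, the biological coefficient of variation at the level of mir-10 was 0.297, and edgeR's estimate for the row was 0.237. Such row estimates, also those of the neighbours below, are drawn towards the trend, so they understate how far a row lies from it. That does not make mir-10 a row of small spread. Of its neighbours in rank, lin-4 (0.182), mir-9 (0.180) and mir-22 (0.182) lay further under the trend, and mir-221 (0.330) lay above it. The test sets mir-10 against the trend and not against these rows themselves.

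**Figure D3:**
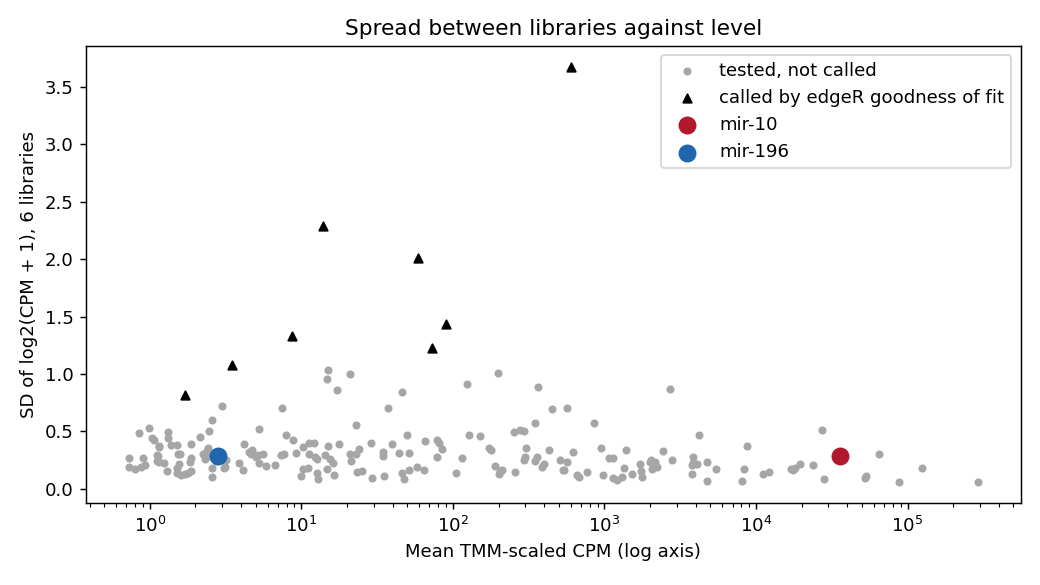
SD of log2(CPM + 1) over 6 libraries against mean TMM-scaled CPM (log axis) for the 214 tested features, with features called by edgeR's goodness-of-fit test as triangles. Both Hox-linked rows sit among the features that were not called, at 0.29 for mir-10 and 0.28 for mir-196. The added 1 lowers the SD of rows near 1 CPM, mir-196 among them, more than that of abundant rows.

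The last question was whether mir-10 moved with mir-196 or with the partner families from library to library. The Hox-linked rows were opposite at their extremes: library 6 was highest for mir-10 and lowest for mir-196, and library 4 the reverse. The order between them was not fully reversed, as library 1 came next to library 4 for mir-196 but lay near the mean for mir-10. Pearson's r was -0.81 (exact permutation p = 0.05, adjusted p = 0.25) and Spearman's rho was -0.83 (exact permutation p = 0.0583, adjusted p = 0.257), over 6 libraries and adjusted over 5 pairs. The relation therefore did not pass. Without libraries 4 and 6, the farthest from the median of mir-10, r was -0.37, so its size depends in part on those libraries. The r was -0.69 without library 4 alone and -0.64 without library 6 alone. Leaving out the extremes of mir-10 also narrows its range, which can by itself shrink r. Without library 1, r was -0.97 and passed in the exact permutation test (adjusted p = 0.0417); without any other single library it did not pass. With counts of 23 to 45 per library, counting error of mir-196 enters every value of this relation.

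**Figure D4:**
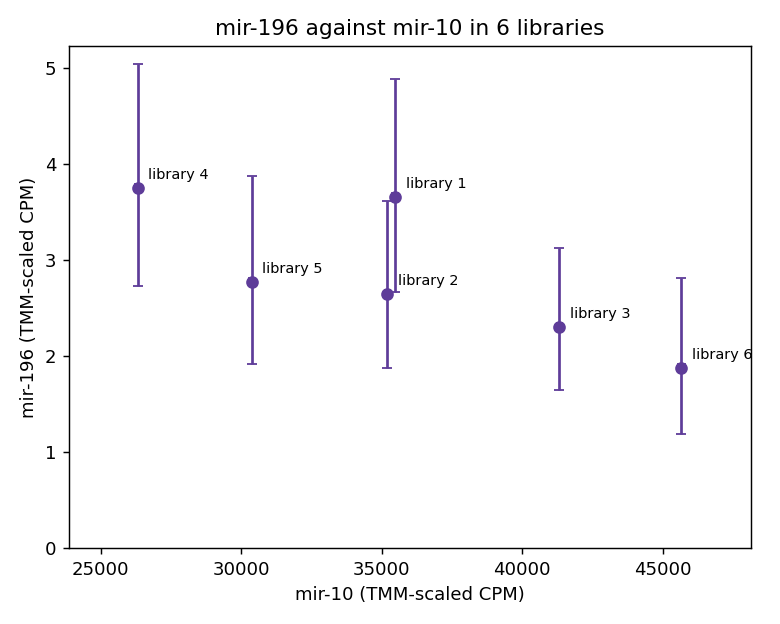
TMM-scaled CPM of mir-196 against mir-10, 1 point per library, with exact 95% binomial intervals for counting error. The points fall from library 4, at 26310 CPM of mir-10 and 3.76 CPM of mir-196, to library 6, at 45662 and 1.88 CPM, and the vertical intervals overlap.

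Relatives of miR-10 lie in clusters with let-7 and miR-125 in vertebrates, which made let-7 and lin-4 the rows of interest for the mixed name. The mir-10 row correlated with let-7 at r = -0.48 (p = 0.346, adjusted 0.865, exact permutation) and at rho = -0.77 (p = 0.103, adjusted 0.257, exact permutation). With lin-4, r was -0.01 (p = 0.978, adjusted 0.978, exact permutation) and rho was 0.26 (p = 0.658, adjusted 0.823, exact permutation). The let-7 row itself varied little, between 83504 CPM, in library 6, and 93022 CPM, in library 2. With mir-9, r was 0.11 (p = 0.826, adjusted 0.978, exact permutation) and rho was -0.03 (p = 1, adjusted 1, exact permutation). With mir-338, r was 0.16 (p = 0.757, adjusted 0.978, exact permutation) and rho was 0.37 (p = 0.497, adjusted 0.823, exact permutation). Without libraries 4 and 6, r was -0.09 for let-7, -0.91 for lin-4, -0.97 for mir-9 and -0.27 for mir-338 over the other 4 libraries. None of these 4 relations passed. Without library 3 alone, r was 0.68 for lin-4, 0.52 for mir-9 and 0.77 for mir-338, and without library 6 alone it was -0.68, -0.86 and -0.47, so single libraries set the sign and size of these 3. With counts scaled by library total alone, r with let-7 was -0.09.

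Over all 214 tested features, 5 were named for each member as closest to it by Pearson's r of log2(CPM + 1) over the 6 libraries, as a description with no test. With 213 candidates and 6 libraries, high values of r are to be found for any row. For mir-10 they were pred_347 (r = 0.95), mir-24 (0.93), mir-944 (0.86), mir-143 (0.81) and mir-148 (0.76). Without libraries 4 and 6 these were 0.85, 0.67, 0.71, 0.75 and 0.66. The predicted feature pred_347 had only 2 to 48 counts per library. The mir-24 row, a family clustered with miR-23 and miR-27 in vertebrates, stood at 183.4, 207.2, 199.1, 153.9, 174.5 and 227.0 CPM in libraries 1 to 6. Like mir-10 it was lowest in library 4 and highest in library 6.

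The smooth-muscle family mir-143 belongs to the vessel wall marker list. It stood at 5568, 4758, 5124, 3938, 3790 and 5279 CPM in libraries 1 to 6, so that libraries 4 and 5, the lowest for mir-10, were also lowest for mir-143. All 3 members of that list (mir-126, mir-143 and mir-145) have a row above 0. Their summed level was 10081, 9407, 9213, 7451, 6869 and 9993 CPM in libraries 1 to 6, again lowest in libraries 4 and 5. The mir-143 row itself made up 4743 of the mean 8835 CPM of this sum, so the sum partly repeats that row. The rows mir-144 and mir-451, the list of red blood cells, were both above 0. They summed to 387.2 and 191.4 CPM in libraries 4 and 5 and to between 484.3 CPM, in library 3, and 625.4 CPM, in library 1, in the others. The match of both lists to mir-10 held at the low end only. Both sums were highest in library 1, near the mean for mir-10, and lowest in library 5, while mir-10 was lowest in library 4. Library 3, with the lowest red blood cell sum outside libraries 4 and 5, was second highest for mir-10. No other list had its lowest values in libraries 4 and 5. White blood cells and microglia were highest in library 5 at 605.5 CPM and lowest in library 4 at 405.0 CPM. Neuronal families, at 134581 CPM, and those of epithelium and skin, at 882.5 CPM, were highest in library 4, where mir-10 was lowest. These sums also rest largely on 1 row each. On average mir-128 made up 65311 of 103583 CPM in the neuronal list, and mir-8 made up 451 of 685.5 CPM in the other. The part of any of these cell types in the spread of mir-10 was not tested. In bulk tissue, fewer cells of a type and less miRNA per cell cannot be told apart.

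For mir-196 the closest rows were mir-130 (r = 0.89), mir-477 (0.83), mir-360 (0.82), mir-425 (0.81) and mir-186 (0.81). Without the libraries farthest from the median of mir-196 these were 0.92, 0.79, 0.86, 0.42 and 0.89. The mir-130 row stood at 1843.5, 1745, 1702, 2000, 1708 and 1660 CPM in libraries 1 to 6. Like mir-196 it was highest in library 4, then library 1, and lowest in library 6. The names mir-477 and mir-360 come from plants and from the nematode worm, so nothing is said of those rows beyond their counts. With 23 to 45 counts per library, the profile of mir-196 is itself partly counting error, and so is its likeness to other rows.

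**Figure D5:**
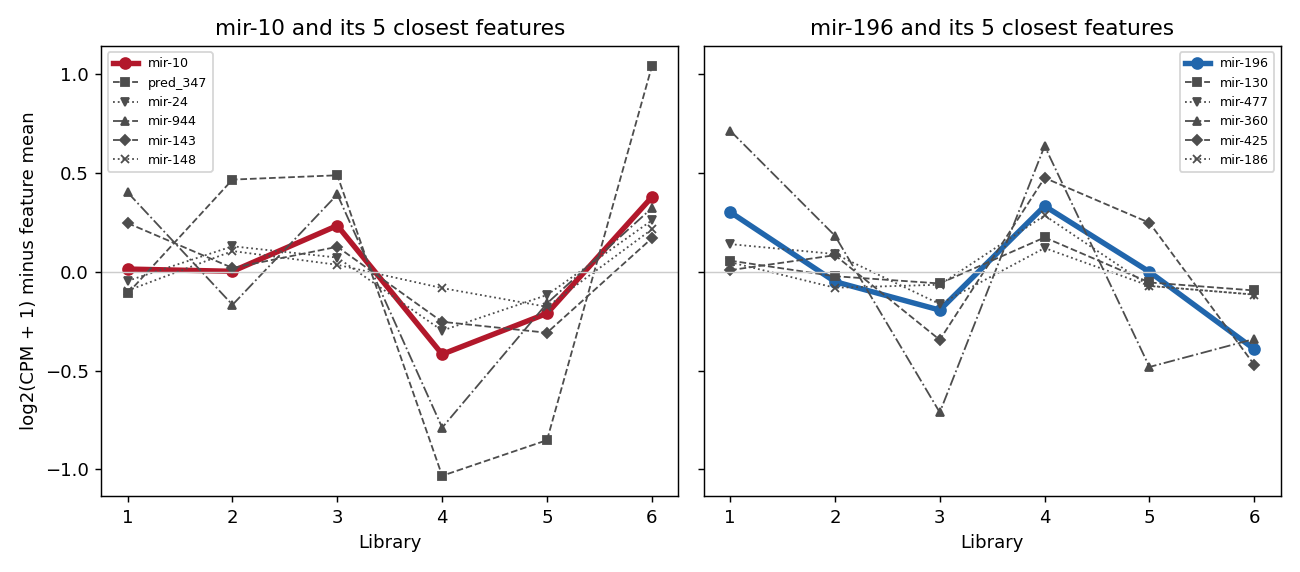
Difference of log2(CPM + 1) from each feature's own mean in libraries 1 to 6 for mir-10 (left) and mir-196 (right), each with the 5 features of highest Pearson r. The order of libraries is arbitrary and lines only join the values of 1 feature; the mir-10 set is low in libraries 4 and 5, and the mir-196 set is high in library 4.

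The tissue label was checked against marker families. All 7 neuronal families had counts, with a summed level of 81988 to 134581 CPM, as had mir-9 and both oligodendrocyte families at 15942 to 21011 CPM. Families of other tissues were lower. The vessel wall list was the highest of these, at 6869 to 10081 CPM, and red blood cells stood at 191.4 to 625.4 CPM. White blood cells and microglia stood at 405.0 to 605.5 CPM with 5 of 5 rows present. Muscle stood at 796.8 to 1295 CPM with 3 of 4 names having a row. Epithelium and skin stood at 428.0 to 882.5 CPM with 4 of 6, of which mir-200 was at 0. Beside these, mir-10 exceeded the summed level of every list of non-neural cells in each library, and mir-196 lay far under the lowest of them. A row at 0 or a missing name need not mean absence, because relatives may be counted under another family name. In the list of epithelium and skin, the mir-8 row stood at 451 ± 204 CPM (mean ± SD). The brain region from which the mir-10 and mir-196 reads came cannot be told from whole-brain libraries, and the amount of hindbrain or spinal cord in each dissection is not given in the labels.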

How the data were processed

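Brain small RNA was sequenced in 6 TruSeq small RNA libraries, per the labels' protocols. The authors deposited raw counts, whole numbers per family row and library. Per the submitters' processing notes, SAMtools 1.3.1-9, BWA 0.7.12-r1039, Trimmomatic 0.36 and bcl2fastq 1.8.4 were used. What each did, with which build, annotation and rule for multiple matches, is not given in the sources used here; near-identical families may share reads.

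Whether the libraries are 6 different fish is not stated in the labels; the p-values therefore reflect only how these samples vary, which may be technical. Counts were scaled by TMM (factors 0.958 to 1.05) with edgeR 4.0.16 in R 4.3.3. The spread was tested over all 214 features averaging at least 10 counts: an intercept-only negative binomial fit at the trended dispersion, goodness of fit, Benjamini-Hochberg adjustment and a threshold of 0.05. DESeq2 1.42.0 served as an alternative. Exact sign-flip and pairing permutation tests (all 720 pairings) were enumerated directly in Python 3.11.15, with SciPy 1.17.1 for ranks and the adjustment. Scripts were tested on simulated data, where the spread test missed most features given the smaller of 2 sizes of extra spread. It also missed most given the larger size when many features varied, though it found most of them on average when few features varied. Both sizes were well above the spread of either member, so a missing call says little. Named features were the 2 members, 2 neighbours in rank on each side, the 5 most alike rows by r, the partner families and the marker lists. Members and lists were chosen with earlier results of these data known.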

Additional observations from a re-analysis of the deposited data

How the results depend on the processing

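Scaling with DESeq2 size factors or by library total moved neither level by 1 SD, and the share did not move with the total of named families. Without mir-181 in the total, mir-10 stood at 50464 CPM, mir-196 at 4.01 CPM and the share at 5.06%, because the total shrank. The number of features called variable was 8 in the main test, 177 by the Poisson index and 3 as DESeq2 outliers, and 6 to 9 with 1 library left out. Neither member was called under any alternative except the Poisson index (chi-square per degree of freedom 17360 and 2.49); mir-196 was not tested at a mean of at least 50 counts. With 1 library left out the exact test cannot give a p under 0.0625, so no ratio of mir-10 could pass. The log2 ratios then ran from 13.44 to 13.79 for mir-196, -1.41 to -1.24 for let-7, -0.68 to -0.52 for lin-4, -0.64 to -0.48 for mir-9 and 0.91 to 1.10 for mir-338. The r of mir-10 then ran from -0.97 to -0.64 with mir-196, -0.69 to -0.47 with let-7, -0.68 to 0.68 with lin-4, -0.86 to 0.52 with mir-9 and -0.47 to 0.77 with mir-338. The sign turned for lin-4 without library 3 or 5, and for mir-9 and mir-338 without library 6. With CPM per library total, r was -0.09 with let-7, 0.012 with lin-4, 0.22 with mir-9, 0.20 with mir-338 and -0.68 with mir-196 (adjusted p = 0.653, exact permutation). The cause of these changes was not tested. No analysis paired between groups was possible because there is 1 group. Depth limits mir-196, with 23 to 45 counts per library.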
